A study of Mus musculus with 6 samples.

Results

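Chemokines are small secreted or membrane-bound proteins that guide cells along concentration gradients by acting on G protein-coupled receptors. CC chemokines, named Ccl, attract mainly monocytes, macrophages and T cells, and in brain tissue microglia are a known source of several of them after injury. Cxcl12 and Cx3cl1 are also made in the healthy brain, Cxcl12 for the placement of neural progenitors and Cx3cl1 by neurons, whose signal is read by the microglial receptor Cx3cr1. The ligand genes Ccl2, Ccl3, Ccl4, Ccl5, Ccl6, Ccl9, Ccl12, Cxcl12, Cxcl16 and Cx3cl1 were examined here in the mouse dentate gyrus (DG). They were taken by gene symbol from the platform annotation by a rule that uses no measured value, although the set was proposed with earlier results of these data known, and all 10 had a probe. They make up 10 of the 19057 named genes and 17 of the 45281 probes on the array.

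The samples were the micro-dissected right DG of 6 male C57BL/6j mice (strain label C57/Black6J) of 6 to 8 weeks, each mouse on its own Illumina MouseWG-6 beadchip array. The KA-SE group held 3 mice with status epilepticus after repeated low-dose kainic acid injections (KA, a glutamate receptor agonist), and only mice with long-lasting severe seizures had been included. The saline group held 3 mice injected with saline. Tissue was collected 72 h after the injections in both groups.

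Between 21798 and 22771 probes reached a detection p-value under 0.05 on an array, and median raw intensities lay between 47.8 and 63.0. Markers of DG granule neurons were present, with C1ql2 averaging 12.28 in KA-SE and 11.99 in saline on the log2 scale and Prox1 averaging 8.61 in KA-SE and 8.84 in saline, while probes of Calb1 and Stxbp6 were not above background on any array. The markers Wfs1 and Fibcd1 of CA1 pyramidal neurons were detected on all arrays too. Saline replicate 2 stood apart in Ttr, the leading transcript of the choroid plexus, at a log2 signal of 7.82 against 13.28 to 14.85 on the other 5 arrays. Saline replicate 1 was the highest array for Ttr and for 2 further choroid plexus markers. These were Kl (9.19, against 7.51 to 8.11 on the other 5 arrays) and Otx2 (8.20, against 6.38 to 7.57). Precision is limited throughout by having 3 arrays in each group.

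Promoter sequences are shown for ligand genes with an entry in the RefSeq promoter table of GRCm38.p6, where 6 of the 10 genes were listed. Of these, the genes shown had the largest differences in mean log2 signal between the groups. Ccl3 was not tested, and its groups overlapped. Given are the 100 bases before the transcription start of Ccl9 (chr11:83578637-83578736, minus strand), Ccl12 (chr11:82101745-82101844, plus strand) and Ccl3 (chr11:83649379-83649478, minus strand), 5′ to 3′, with matches to 4 motifs in capitals.
Ccl9: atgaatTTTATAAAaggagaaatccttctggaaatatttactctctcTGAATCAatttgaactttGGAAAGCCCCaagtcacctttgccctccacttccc
Ccl12: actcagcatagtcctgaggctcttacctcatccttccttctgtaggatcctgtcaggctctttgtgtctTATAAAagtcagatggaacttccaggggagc
Ccl3: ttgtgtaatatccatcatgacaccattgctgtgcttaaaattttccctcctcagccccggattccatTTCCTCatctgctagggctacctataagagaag
The motifs were the NF-kB consensus, the TATA box letters TATAAA, the loose AP-1 form TGANTCA and the ETS-family core GAGGAA. Each was searched on both strands. TGANTCA allows any centre base and is looser than the AP-1 consensus, so a match need not be an AP-1 site. In the Ccl9 stretch, TATAAA matched on both strands at overlapping positions. TGANTCA matched, with A as its centre base, from -53 to -47 and the NF-kB consensus from -35 to -26, counted back from the start site. Ccl12 held TATAAA from -31 to -26, and Ccl3 held GAGGAA, on the strand opposite to the printed one, from -33 to -28. Within the full windows of 250 bases before and 50 after the start, the NF-kB consensus was found in 1 of the 6 members and in 4.51% of all 32851 promoters. Corresponding values were 3 of 6 and 13.6% for TATAAA, 1 of 6 and 7.81% for TGANTCA, and 3 of 6 and 28.3% for GAGGAA. These matches describe letters and do not show that a factor is bound. Ccl9 and Ccl6 lie in one cluster of Ccl genes on chromosome 11, and their windows shared a stretch of 74 aligned positions with 78.4% identity, the highest alignment score of the 15 pairs of members.

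Detection of each ligand was compared first, because a probe that stays near background gives no usable level. Of the 10 genes, 5 had a probe that was detected (p under 0.05) on each of the 3 arrays of 1 or both groups and were tested, which were Ccl9, Ccl12, Cxcl12, Cxcl16 and Cx3cl1. These had 8 tested probes. For Ccl2, Ccl3, Ccl4, Ccl5 and Ccl6, no probe met this criterion, and another probe of Cxcl16 and a further 2 of Cxcl12 were not above background on any array. In the plot of raw intensity against the detection limit, 4 of the 9 untested probes lay below that limit on all arrays and 5 exceeded it on at least 1. Ccl3 and a probe of Ccl4 stood farthest above it, on KA-SE replicates 2 and 3.

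**Figure D1:**
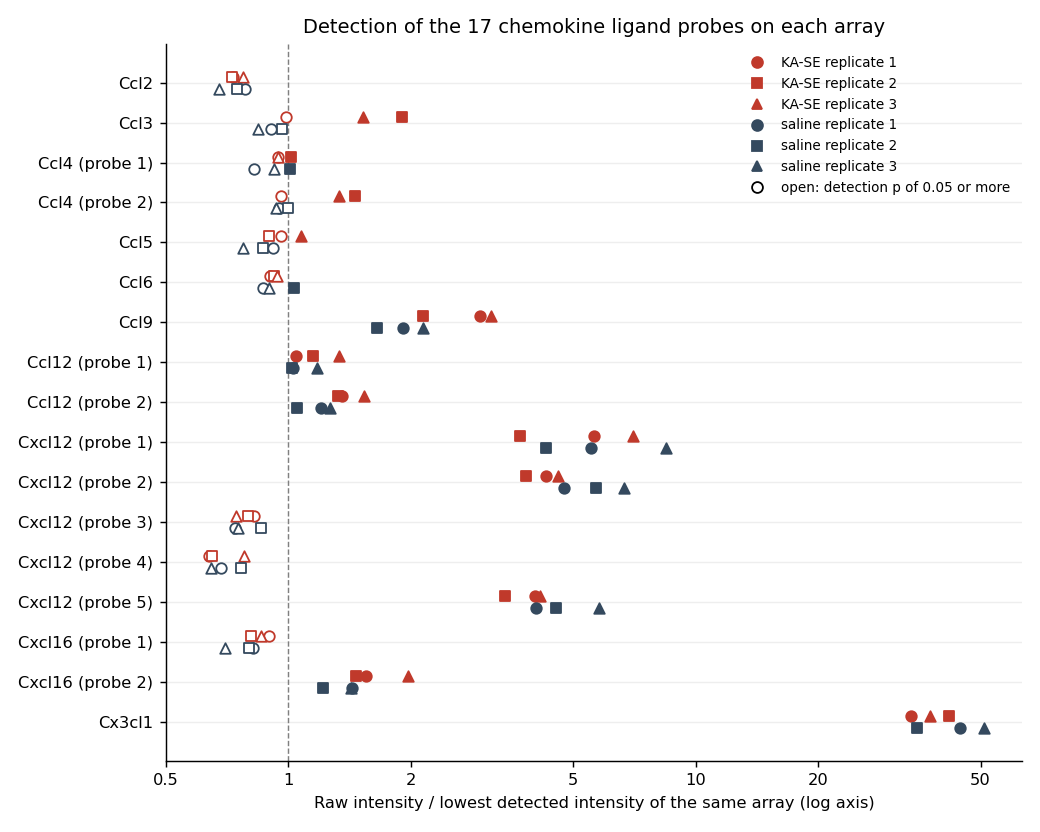
Raw intensity of each of the 17 chemokine ligand probes divided by the lowest detected intensity of the same array, on a log axis, for KA-SE (red) and saline (dark blue) with one symbol shape per replicate. Filled symbols have a detection p-value under 0.05 and the dashed line marks the detection limit. Ccl3 reached 1.90 and 1.52 times the limit on KA-SE replicates 2 and 3 and lay below 1 on the other arrays, and Cx3cl1 lay at 33.7 times the limit or higher on all arrays.

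Ccl2 and Ccl12 encode monocyte attractants that act on the receptor CCR2, Ccl12 being a mouse gene. Ccl2 was not above background on any of the 6 arrays, with raw intensities of 37.4, 36.6 and 41.7 on KA-SE replicates 1 to 3 and 42.5, 36.7 and 43.2 on saline replicates 1 to 3. Detection p-values of Ccl2 ranged from 0.435 to 0.767. No level or fold is therefore given for Ccl2. Ccl12 was detected on all arrays by both of its probes, close to the limit. The brighter Ccl12 probe (probe 2) had log2 signals of 5.47, 5.55 and 5.83 in KA-SE, against 5.25, 4.96 and 5.27 in saline. All KA-SE arrays lay above all saline arrays for this probe. The log2 difference between the groups was 0.46 ± 0.138 (SE), or 1.37-fold, and did not pass in limma (adjusted p = 0.322). The other Ccl12 probe read 4.83, 5.18 and 5.52 in KA-SE and 4.86, 4.88 and 5.11 in saline, so that the groups overlapped. It had a log2 change of 0.23 ± 0.168 (adjusted p = 0.841).

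Ccl3, Ccl4 and Ccl5 encode classical inflammatory chemokines that attract monocytes, macrophages and T cells. Ccl3 had raw intensities of 50.3, 95.6 and 81.9 on KA-SE replicates 1, 2 and 3, against 49.3, 47.3 and 53.7 on saline replicates 1, 2 and 3. It was detected on KA-SE replicates 2 and 3 and on none of the saline arrays. KA-SE replicate 1 missed the limit narrowly, with a detection p-value of 0.0556, beside 0.132, 0.062 and 0.212 in saline. The log2 signals were 4.70, 6.35 and 5.81 in KA-SE and 4.58, 4.71 and 4.49 in saline. As no saline array measured it, no fold with an error is given. The mean KA-SE signal of Ccl3 lay 1.78-fold above the saline detection limit, which is a rough bound only. KA-SE replicate 1, itself not above background, is part of that mean, and the groups overlapped. Such a bound sets the mean of the brighter group against the lowest signal detected on each array of the other group, or against the probe's own signal where that is higher.

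Ccl4, whose annotated span overlaps that of Ccl3 in GRCm38.p6, had the same division of arrays on probe 2 of its 2 probes. Raw intensities of this probe were 48.9, 73.3 and 71.6 in KA-SE and 51.5, 49.0 and 59.7 in saline. It was detected on KA-SE replicates 2 and 3 only. The groups overlapped, and the mean KA-SE signal lay 1.44-fold above the saline detection limit. The other Ccl4 probe read 48.0, 51.0 and 50.7 in KA-SE and 44.7, 49.6 and 58.8 in saline, and was detected on KA-SE replicate 2 and saline replicate 2. The Ccl4 probes thus differed in what they showed. The overlap of the genes was taken from annotated spans alone, without strand or exons, and probe sequences were not used here. Whether signal was shared between the Ccl3 and Ccl4 probes was therefore not tested. Ccl5 was detected on KA-SE replicate 3 alone, with raw intensities of 49.0, 45.1 and 57.8 in KA-SE and 49.6, 42.5 and 49.6 in saline.

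Of all 45281 probes, 66 (0.146%) were detected on KA-SE replicates 2 and 3 and on no other array, and the probes of Ccl3 and Ccl4 were both among them. Detection on at least 2 KA-SE arrays and no saline array, which both met, was found for 0.68% of all probes. Ordered by mean raw intensity over the detection limit on these arrays, Ccl3 came first with 1.71 and Ccl4 was at rank 3 with 1.39. The Fc receptor gene Fcgr4 stood between them with 1.42. This ordering was made after the values were seen and carries no test. With a looser filter, which took probes detected on at least 2 arrays of a group, neither passed (limma adjusted p = 0.359 for Ccl3 and 0.538 for Ccl4). Without KA-SE replicate 1 both met the filter and were past the threshold (adjusted p = 0.0189 for Ccl3 and 0.0305 for Ccl4). In both fits these probes entered only through the KA-SE arrays where they were high, and were set against saline values that were not above background. The calls therefore depend on leaving out the 1 KA-SE array that did not detect them and are no support for a difference between the groups.

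Ccl6 and Ccl9 encode related CC chemokines of the mouse, and Ccl9 acts on CCR1. Ccl6 was detected on saline replicate 2 alone, with raw intensities of 45.8, 46.3 and 50.5 in KA-SE and 47.0, 50.8 and 57.2 in saline. Ccl9 was the only CC chemokine of the set that stood clearly above the limit on every array, at 1.65 times the limit or higher. Ccl9 had log2 signals of 7.03, 6.58 and 7.24 in KA-SE, against 6.24, 6.12 and 6.27 in saline. The groups did not overlap, and KA-SE replicate 2, the highest array for Ccl3, was the lowest KA-SE array for Ccl9. The mean Ccl9 signal was 6.95 ± 0.336 in KA-SE and 6.21 ± 0.0788 in saline (SD, n = 3 each). This gave a log2 change of 0.74 ± 0.161 (SE), or 1.67-fold, with a 95% interval from 0.38 to 1.09. Ccl9 did not pass in limma (adjusted p = 0.13), at rank 147 of the 21226 probes tested.

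**Figure D2:**
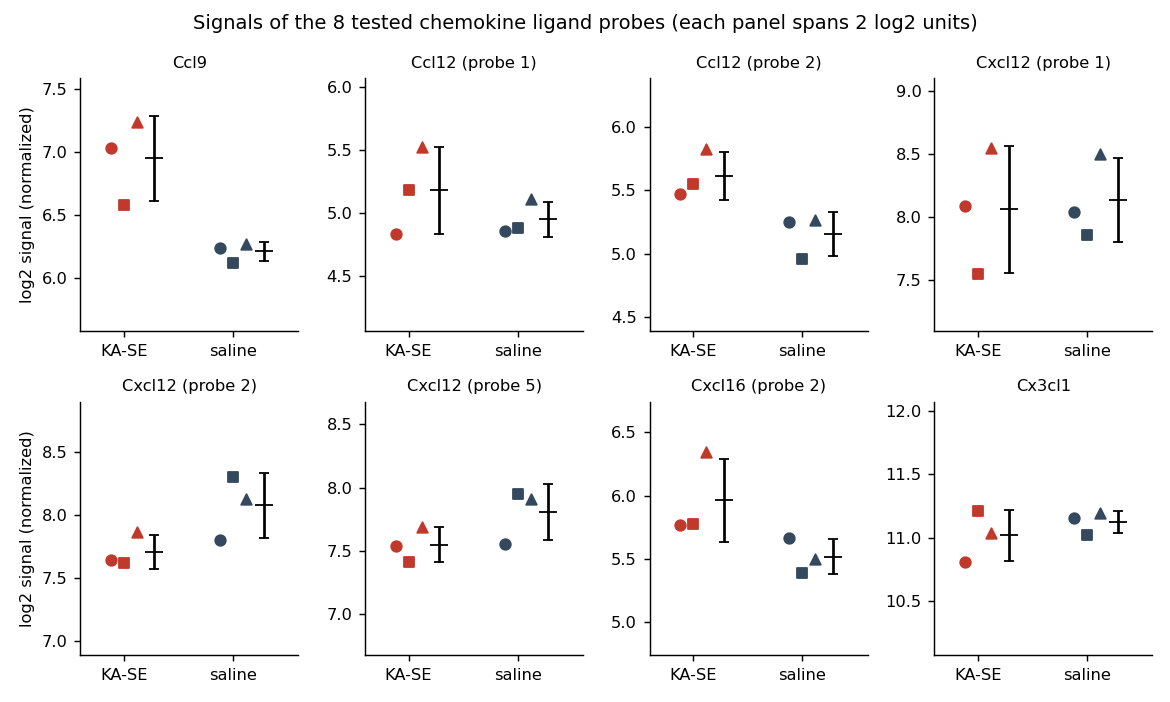
Normalized log2 signal of the 8 tested chemokine ligand probes in KA-SE (red, left) and saline (dark blue, right), with one symbol shape per replicate and the mean ± SD of each group (n = 3) beside it, each panel spanning the same range of log2 units. The groups did not overlap for Ccl9, Ccl12 (probe 2) and Cxcl16 (probe 2), and overlapped for the other probes.

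Cxcl12 encodes a chemokine that acts on CXCR4 and is bound by the scavenger receptor ACKR3. It had 5 probes, of which 3 were detected on all arrays and are annotated to different Cxcl12 transcripts. The brightest probe (probe 1) had log2 signals of 8.09, 7.55 and 8.55 in KA-SE, against 8.04, 7.86 and 8.50 in saline. Replicate 3 was the highest array within either group, and the groups overlapped. KA-SE minus saline was -0.07 ± 0.238 on the log2 scale, with a 95% interval from -0.60 to 0.46 (limma adjusted p = 0.981). The second Cxcl12 probe (probe 2) read 7.64, 7.62 and 7.87 in KA-SE and 7.80, 8.30 and 8.13 in saline, a log2 change of -0.37 ± 0.146 that did not pass (adjusted p = 0.521). The remaining tested Cxcl12 probe (probe 5) read 7.54, 7.41 and 7.69 in KA-SE and 7.55, 7.95 and 7.91 in saline (log2 change -0.26 ± 0.139, adjusted p = 0.721). All 3 tested probes had negative changes, of different size, and the groups overlapped on the brightest and on both others.

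Cxcl16 and Cx3cl1 encode the transmembrane chemokines, which are shed from the cell surface by ADAM proteases and act on CXCR6 and CX3CR1. The tested Cxcl16 probe (probe 2) had log2 signals of 5.77, 5.78 and 6.34 in KA-SE, against 5.66, 5.39 and 5.50 in saline. The groups did not overlap, although KA-SE replicates 1 and 2 lay close to the highest saline array. The difference was 0.45 ± 0.164 (SE) on the log2 scale, or 1.36-fold, and did not pass in limma (adjusted p = 0.464). Cx3cl1 was far above background on all arrays, with log2 signals of 10.81, 11.21 and 11.04 in KA-SE and 11.15, 11.02 and 11.20 in saline. The groups overlapped, with a log2 change of -0.10 ± 0.13 (adjusted p = 0.941) and a 95% interval from -0.39 to 0.18, so that a lower or higher Cx3cl1 level within these bounds could not be resolved at this spread between arrays.

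None of the 5 tested ligand genes, each by its brightest probe, passed an adjusted p of 0.05 in limma, against a background of 0.312% of all 11222 genes. Of all probes 0.231% passed, 0.212% higher and 0.0188% lower in KA-SE, which was 45 and 4 probes, or 63 and 15 with median scaling of the arrays. At an unadjusted p under 0.05 there were 3 of 5, all higher in KA-SE (Ccl9, Ccl12 and Cxcl16), against 8.45% of all genes. The same 3 were the genes whose KA-SE arrays all lay above the saline arrays, where the background was 8.56%, and 0 of 5 lay wholly below them, against 5.49%. Counted by probe, 3 of 8 had an unadjusted p under 0.05 with higher values in KA-SE (5.02% of all probes) and 1 of 8 with lower values (3.11%), the second Cxcl12 probe. Groups did not overlap for 3 of 8 probes in the higher direction (7.33%) and for 0 of 8 in the lower direction (5.75%). With 3 against 3 arrays, an exact two-sided permutation test of a single probe cannot go below p = 0.1, and it gave 0.1 for each of these genes. The median log2 change of the 5 genes was 0.45, beside 0.00 over all genes tested, and the members ranged from -0.10 for Cx3cl1 to 0.74 for Ccl9. The median was 0.26 without KA-SE replicate 3, 0.25 with a background offset of 50 and 0.28 without background correction. On the deposited processed table, 0 of the 5 passed in limma and 3 had an unadjusted p under 0.05, beside 1683 of all 21226 probes.

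**Figure D3:**
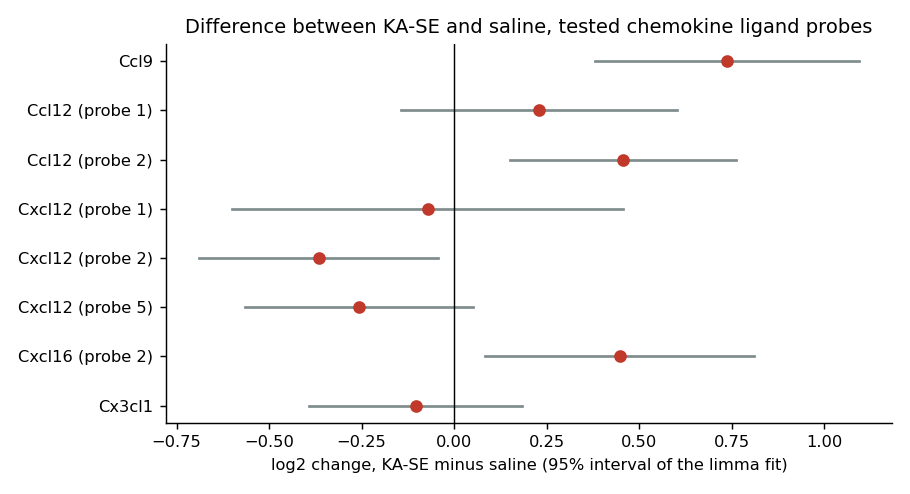
Log2 change, KA-SE minus saline, of the 8 tested chemokine ligand probes (points) with the 95% interval of the limma fit (lines, n = 3 per group), not adjusted for multiple testing. Intervals of Ccl9, Ccl12 (probe 2), Cxcl16 (probe 2) and Cxcl12 (probe 2) did not include 0, and no probe passed after adjustment over all 21226 probes.

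As bulk tissue was measured, more cells of a type and more RNA per cell cannot be told apart, and marker genes of the cells that a DG sample could hold are therefore given beside these values. Microglia markers had positive changes in 9 of 9 tested members, with a median log2 change of 0.60 and 1 past the threshold, the orphan receptor gene Gpr34 (0.85 ± 0.119, limma adjusted p = 0.0259). An unadjusted p under 0.05 in limma was found for 8 of 9, against 8.45% of all genes. All KA-SE arrays lay above all saline arrays for 8 of 9, against 8.56%. Of the markers with the highest levels, the growth factor receptor gene Csf1r had a log2 change of 0.63, Olfml3 one of 0.61 and the purine receptor gene P2ry13 one of 0.19, none past the threshold. The mean log2 signal over these 9 genes was 8.21, 8.21 and 8.51 on KA-SE replicates 1 to 3 and 7.84, 7.75 and 7.69 on saline replicates 1 to 3. Relative to the saline mean, the 5 tested ligand genes had a median of 0.25, 0.26 and 0.67 on the KA-SE arrays, and the microglia markers one of 0.43, 0.42 and 0.74. KA-SE replicate 3 was the highest array for both. The part of microglia in the ligand values was not tested.

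Astrocyte markers were positive in 8 of 8, with an unadjusted p under 0.05 in limma for 6 of 8, against 8.45% of all genes. They had a median of 0.41, with Gfap past the threshold (1.89 ± 0.138, adjusted p = 0.00057). Their means were 11.87, 11.94 and 11.94 in KA-SE and 11.41, 11.35 and 11.30 in saline. Markers of CA pyramidal neurons were negative in 4 of 4, with a median of -0.32 and 0 past the threshold in limma. An unadjusted p under 0.05 was found for 1 of 4, against the same 8.45%. Their means were 10.13, 10.22 and 10.18 in KA-SE and 10.25, 10.51 and 10.64 in saline, and their part in the negative values of Cx3cl1 and Cxcl12 was not tested. Endothelial markers had a median of 0.20 and blood markers one of 0.29, and none of them passed. An unadjusted p under 0.05 in limma was found for 0 of 8 endothelial and 2 of 3 blood markers, both higher in KA-SE, against 8.45% of all genes. Of the markers of blood-derived cells, 0 of 4 monocyte genes with a probe (Plac8, Chil3, F10 and Vcan) were detected on any array. Among T and NK cell genes, 1 of 7 was detected on any array (Cd3e), as were 3 of 7 neutrophil genes (S100a8, S100a9 and Elane), and none on all arrays of a group. Border macrophage markers Mrc1 and F13a1 were tested and had log2 changes of 0.22 and 0.01, with means over both of 5.78, 5.76 and 5.52 in KA-SE and 5.83, 5.43 and 5.45 in saline.

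**Figure D4:**
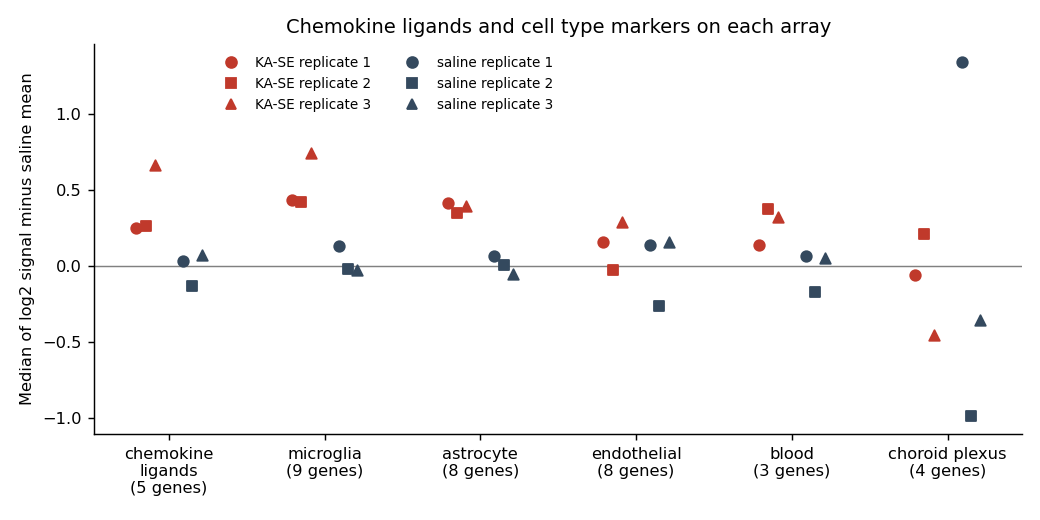
Median over the tested genes of each list of the log2 signal minus the saline mean of that gene, for KA-SE (red, left) and saline (dark blue, right) arrays, with one symbol shape per replicate. KA-SE replicate 3 was highest for the 5 chemokine ligands (0.67) and for the microglia markers (0.74), and choroid plexus markers ranged from -0.99 to 1.35 within the saline group.

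Receptors of these ligands were compared next. Of 23 receptor genes, 22 had a probe, 8 were detected on at least 1 array and 6 were tested. Of the 6, 5 were positive and 0 past the threshold in limma. An unadjusted p under 0.05 was found for 2 of 6, against 8.45% of all genes. Cx3cr1, the receptor of Cx3cl1 on microglia, had log2 signals of 9.14, 9.13 and 9.57 in KA-SE and 8.89, 8.77 and 8.88 in saline. The groups did not overlap, with a log2 change of 0.43 ± 0.138 (limma adjusted p = 0.367), while its ligand stood at -0.10. The probe annotated to Ackr1, an atypical receptor that binds many inflammatory chemokines without G protein signalling, had a log2 change of 0.33 ± 0.105 (adjusted p = 0.353). The Cxcl12 receptor gene Cxcr4 had one of 0.08 and the scavenger receptor gene Ackr3 one of 0.08. Ccr1 and Ccr2, which encode receptors of Ccl9 and Ccl12, were not above background on any array, nor was Cxcr6, the receptor gene for Cxcl16.

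Further chemokine ligands outside the set had mostly negative values. Of 27 listed genes, 26 had a probe, 8 were detected on at least 1 array and 6 were tested, with a median log2 change of -0.20, 5 negative and 0 past the threshold in limma. Ccl19, a ligand of CCR7, had log2 signals of 5.20, 5.11 and 5.03 in KA-SE and 5.47, 5.43 and 5.30 in saline (-0.28 ± 0.112, adjusted p = 0.513). Cxcl14 (-0.21), Ccl27a (-0.19) and Ccl11 (-0.18) had larger p-values. The interferon-induced gene Cxcl10 was detected on 1 KA-SE array and no saline array, and Cxcl1, Cxcl2, Cxcl9 and Ccl7 on none.

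For genes that shed, cleave or present chemokines the median was 0.20 on the log2 scale, with 9 of 11 tested, 8 positive and 0 past the threshold in limma. An unadjusted p under 0.05 was found for 4 of 9, against 8.45% of all genes. The 4 with an unadjusted p under 0.05 were Ctss, the lysosomal protease cathepsin S (0.63 ± 0.161, adjusted p = 0.218), the matrix protease gene Mmp2 (0.56 ± 0.172), and the heparan sulfate carriers Sdc4 (0.51 ± 0.136) and Sdc2 (0.32 ± 0.13). Adam17, a sheddase of Cx3cl1 and Cxcl16, had a log2 change of 0.11. Signalling genes below chemokine receptors had a median of 0.18, with 8 of 14 tested and 6 positive.

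Pik3cg, the catalytic subunit of the phosphoinositide 3-kinase that G protein-coupled receptors activate in leukocytes, passed the threshold. Its log2 signals were 5.92, 5.90 and 6.12 in KA-SE and 5.30, 5.18 and 5.24 in saline, a difference of 0.74 ± 0.114 (SE) with an adjusted p of 0.0422 in limma. Pik3cg was past the threshold in 4 of 16 alternatives, with adjusted p-values from 0.0206 to 0.216, and lost its call when any 1 of the 6 arrays was left out (0.0515 to 0.216), on the deposited processed table (0.0618) and with the replicate number as a block (0.0639). A second Pik3cg probe had a log2 change of 0.56. The guanine nucleotide exchange factor gene Vav1 (0.44 ± 0.148) and the G protein regulator gene Rgs10 (0.39 ± 0.149) did not pass. Of the NF-kB pathway, whose factors drive many inflammatory chemokine genes, 8 of 12 genes were tested, with a median of -0.07. In limma, 0 were past the threshold and 0 had an unadjusted p under 0.05, against 8.45% of all genes. Tnfaip3, an NF-kB target and inhibitor, had the smallest p of that list (-0.29 ± 0.133, adjusted p = 0.627).

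**Figure D5:**
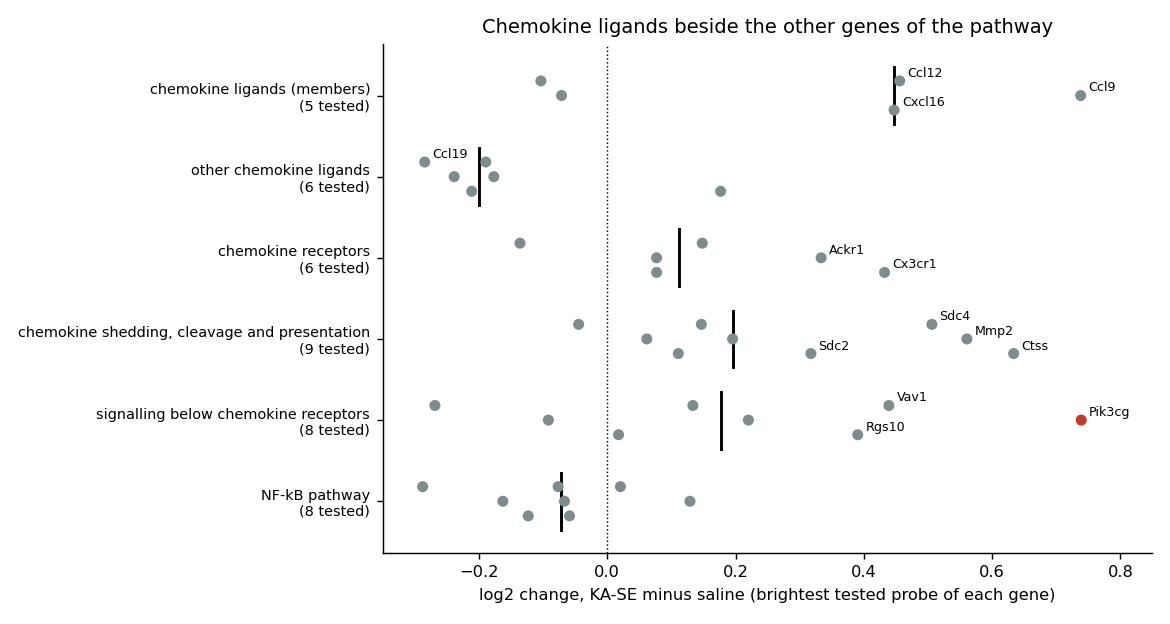
Log2 change, KA-SE minus saline, of each tested gene in the chemokine ligand set and in 5 further lists of the pathway, with the list median as a black bar and names for genes with an unadjusted p under 0.05. The gene past the adjusted threshold, Pik3cg, is in red. List medians ran from -0.20 for other chemokine ligands to 0.45 for the 5 tested ligands of the set.

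The genes whose log2 signals ran most like those of each ligand were sought over the 6 arrays among 10358 genes detected on all arrays, by Pearson correlation, which is a description of 6 points that share group and array. For Ccl9 they were Bmp4 (r = 0.990), which encodes a bone morphogenetic protein and rose by a log2 change of 1.04 (limma adjusted p = 0.0381), and Ostf1 (r = 0.987). For Ccl12 they were Prcp and Rcsd1 (r = 0.991 each), and for Cxcl16 the integrin gene Itgb5 (r = 0.996) and the ubiquitin ligase gene Trim21 (r = 0.994). For Cxcl12 they were Kars (r = 0.989) and Cluh (r = 0.987), and for Cx3cl1 the mitochondrial genes Ndufv2 and Atp5h (r = 0.983 each). None of these genes other than Bmp4 passed.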

How the data were processed

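RNA of the right DG was extracted with TRIzol, and labelled cRNA was hybridized by the authors to Illumina MouseWG-6 beadchips without pooling. In the raw table, intensity values as deposited have no background subtraction, and a detection p-value was deposited for each probe and array, which the authors derived from negative control probes, mismatch probes and stringency. A second table, deposited as a processed score without a stated log base or offset, was background-corrected, transformed and normalized by the authors, and served as an alternative. Within every array it kept the rank order of the raw intensities. GenomeStudio was used by the authors, in a version not given in the sources used here.

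Columns were assigned by sample title, and 2 raw KA-SE columns by their trailing replicate number. Intensities were corrected by normexp with negative controls inferred from the detection p-values (offset 16), quantile normalized and log2 transformed (limma 3.58.1, R 4.3.3). A probe was retained if it was detected (p under 0.05) on each of the 3 KA-SE or each of the 3 saline arrays, which left 21226 of 45281. The group difference was fitted in a linear model with empirical Bayes moderation (limma), two-sided, and p-values were adjusted by Benjamini-Hochberg across the retained probes, at a threshold of 0.05. Errors of log2 changes are moderated standard errors. A gene takes its brightest tested probe. The study's methods name a permutation p, which with 3 against 3 arrays cannot go below 0.1 for a single probe, and the linear model was used instead. Slide positions were not used here, so a batch of arrays was not tested. The procedure was tested on simulated data. Cross-hybridization between probes of related chemokines was not tested.

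Probes were named by the platform annotation, in which 34885 probes have 1 gene, 18 several and 10378 none listed. Members and lists were chosen with earlier results of these data known. Named genes were all members, passing genes and up to 4 per pathway list with the smallest p-values, 2 genes of the most similar pattern per member, and up to 3 markers per list with the highest level. Genes given beyond this rule were chosen after their values were seen, Gpr34 and Gfap as they passed and others, such as untested receptors, for their detection. The alternatives covered background correction, normalization, filters, prior, array weights, a replicate block, probe choice and omission of each array.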

Additional observations from a re-analysis of the deposited data

Results flagged for a closer look

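Ccl3 and Ccl4 gave signals outside the tested probes that lay above all saline arrays on KA-SE replicates 2 and 3 only. KA-SE replicate 1 was not above background for these probes, and the groups overlapped for both. Ccl3 was detected on 2 of 3 KA-SE arrays and 0 of 3 saline arrays, with a mean KA-SE signal 1.78-fold above the saline detection limit. A Ccl4 probe was detected on the same 2 of 3 KA-SE arrays and 0 of 3 saline arrays, with a mean KA-SE signal 1.44-fold above that limit. Of all probes on the array, 0.68% were detected on at least 2 KA-SE arrays and no saline array.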

How the results depend on the processing

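With another background offset, no background correction, median scaling, the deposited processed table, other filters, an intensity trend, array weights, a replicate block or the mean of a gene's probes, 0 of the tested chemokine ligand genes passed, and the median log2 change of the set, 0.45, lay between 0.25 and 0.46, within 1 SD of its spread between arrays (0.26 to 0.55 with 1 array left out). The range from 0.25 to 0.46 includes the processed table, which has its own scale (0.26). It also includes fits with 10 ligand genes without a filter on dim probes and 7 with the looser filter. With 1 array left out, the 0.55 was without KA-SE replicate 1, where 7 ligand genes were tested. Ccl3 and Ccl4 entered that fit only through the KA-SE arrays where they were high. With 5 genes tested, the highest median was 0.50, without saline replicate 1. The count of ligand genes past the threshold ranged from 0 to 2 when 1 array was left out, the 2 being Ccl3 and Ccl4 without KA-SE replicate 1. The log2 change of Ccl9, outside the processed table with its own scale, lay between 0.55 and 0.93 (limma adjusted p from 0.0721 to 0.411 over all alternatives), and those of Ccl12, Cxcl16 and both less bright Cxcl12 probes kept their direction. The brightest Cxcl12 probe ranged from -0.32 to 0.19 with 1 array left out, at 0.19 without KA-SE replicate 2 and 0.11 without saline replicate 3. With 1 array left out Cx3cl1 ranged from -0.20 to 0.0014, the highest without KA-SE replicate 1, and it was at -0.22 with median scaling.

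Over all probes, 49 passed, against 78 with median scaling (median of all probes -0.10), 9 on the processed table, 0 without a filter on dim probes (3000 at an unadjusted p under 0.05 in limma), 81 with an intensity trend, 89 with array weights, 32 with the replicate block and 4 to 85 with 1 array left out (4 without KA-SE replicate 3 or saline replicate 3, 5 without KA-SE replicate 2, saline replicate 1 or saline replicate 2, and 85 without KA-SE replicate 1). Of the other pathway genes, 1 passed (Pik3cg), against 0 with an offset of 50, without background correction, with median scaling, on the processed table, without a filter, with the replicate block and with any array left out (0 in each). The replicate numbers name separate mice, so the main fit did not pair them. Deviations of same-numbered arrays had r = 0.02, 0.18 and 0.24 for numbers 1, 2 and 3. Among the other pairs, r was -0.20 for KA-SE replicate 2 with saline replicate 3. It was -0.21 for KA-SE replicate 3 with saline replicate 2. KA-SE replicate 1 was nearest to saline replicate 2 (0.05). Deviations from the group mean cancel within a group, so a positive r brings negative ones with it. The values of the pairs are therefore no independent contrast. Whether and why numbers 2 and 3 deviated together was not tested. The cause of the differences between settings was not tested. The filters change how many probes are tested, and also the p-values at an unchanged log2 change. For Ccl9 the unadjusted p in limma was 0.0009 in the main fit and 0.0042 without a filter on dim probes. The looser filter was chosen after seeing the data. Ccl2, Ccl5 and Ccl6 were too close to background for a difference to be given, and for Ccl3 and Ccl4 only rough bounds were given.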
